A study of Mus musculus with 24 samples.

Results

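The experiment was a polyA RNA-seq comparison of mouse bone marrow cells that carried a vector for IDH1 R132H, with vitamin C and without it. It held 2 of the 24 samples in the series, 1 library of each kind. All genes whose RPKM was 1 or more in either library were taken, which gave 10436 of 22371 genes. RPKM divides a gene's reads by its length and by the size of the library, so it allows levels of different genes to be compared. The total read count was 111453443 in the vitamin C library and 86804487 in the untreated library.

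The vitamin C cells were bone marrow cells immortalized with HOXA9 and given the IDH1 R132H vector, and they received vitamin C at 0.345 mM at 0, 24 and 48 h before harvest at 72 h. The untreated cells had the same HOXA9 immortalization and the same vector, and the labels give no harvest time for them. Both were grown in DMEM with serum, IL-3, IL-6 and SCF. The mutant enzyme came from a vector on top of the cells' own Idh1, and reads of the vector and of the endogenous gene were not separated here. With 1 library in each group there was no replicate and no test between conditions, so every fold below compares these libraries and its interval covers counting error only.

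IDH1 R132H is a mutant isocitrate dehydrogenase that turns 2-oxoglutarate into 2-hydroxyglutarate, which competes with 2-oxoglutarate in many dioxygenases. These enzymes include TET proteins, histone demethylases, collagen hydroxylases and the prolyl hydroxylases that mark the hypoxia-inducible factors for destruction. Vitamin C keeps the iron in such enzymes reduced, and in culture medium it can also act as an oxidant. HOXA9 holds myeloid progenitors in a dividing state, and cells of this kind can mature towards granulocytes, macrophages or mast cells.

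The labelled cell type was checked against its markers. Hoxa9 had 1487 RPKM with vitamin C and 3062 RPKM untreated, and vector and endogenous reads cannot be told apart for this gene either. Cd34, a surface protein of progenitors, had 498 RPKM with vitamin C and 298.5 RPKM untreated. Cpa3, a carboxypeptidase of mast cells and basophils, had 2488 RPKM with vitamin C and 1863 RPKM untreated, so the cells carried progenitor and mast cell or basophil transcripts side by side in both libraries. None of the 9 B cell markers and 2 of the 12 T and NK cell markers reached 1 RPKM. Those 2 summed to 81.1 RPKM with vitamin C and 19.7 RPKM untreated. Of 12 erythroid markers 4 were measured, with sums of 1459 RPKM with vitamin C and 1307 RPKM untreated. Of 9 fibroblast markers 2 were measured, with sums of 446 RPKM with vitamin C and 320 RPKM untreated. Of 8 primary granule markers 3 were at least 1.5-fold lower and 1 was higher, with sums of 2963 RPKM with vitamin C and 4258 RPKM untreated. Of the 14 measured stem and progenitor markers, 7 were at least 1.5-fold lower with vitamin C and 2 were at least 1.5-fold higher. Of the 11 measured mast cell and basophil markers 5 were higher and 0 were lower, with a summed level of 2732 RPKM with vitamin C and 2037 RPKM untreated. Of the 14 measured monocyte and macrophage markers 6 were higher and 4 were lower, with sums of 2032 RPKM with vitamin C and 1568 RPKM untreated. The part of these shifts in the gene groups described below was not tested. In bulk RNA, fewer cells of a type and less RNA per cell cannot be told apart.

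Genes were sorted into classes by log2 of (vitamin C RPKM + 0.5) over (untreated RPKM + 0.5). With vitamin C 248 genes (2.38% of those tested) were 2-fold or more higher, and 400 (3.83%) were between 1.5- and 2-fold higher. On the other side 493 genes (4.72%) were between 1.5- and 2-fold lower, and 200 (1.92%) were 2-fold or more lower. These are called large and moderate changes here. Because of the 0.5 added to both values, a scarce gene whose plain RPKM ratio is over 2 can still fall in the moderate class, such as Rab19 with a plain ratio of 2.82. The other 9095 genes stayed within 1.5-fold, and the median log2 change of all genes was −0.04. The whole 95% counting interval of the RPKM ratio lay past the limit for 235 large higher, 344 moderate higher, 392 moderate lower and 187 large lower genes.

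**Figure D1:**
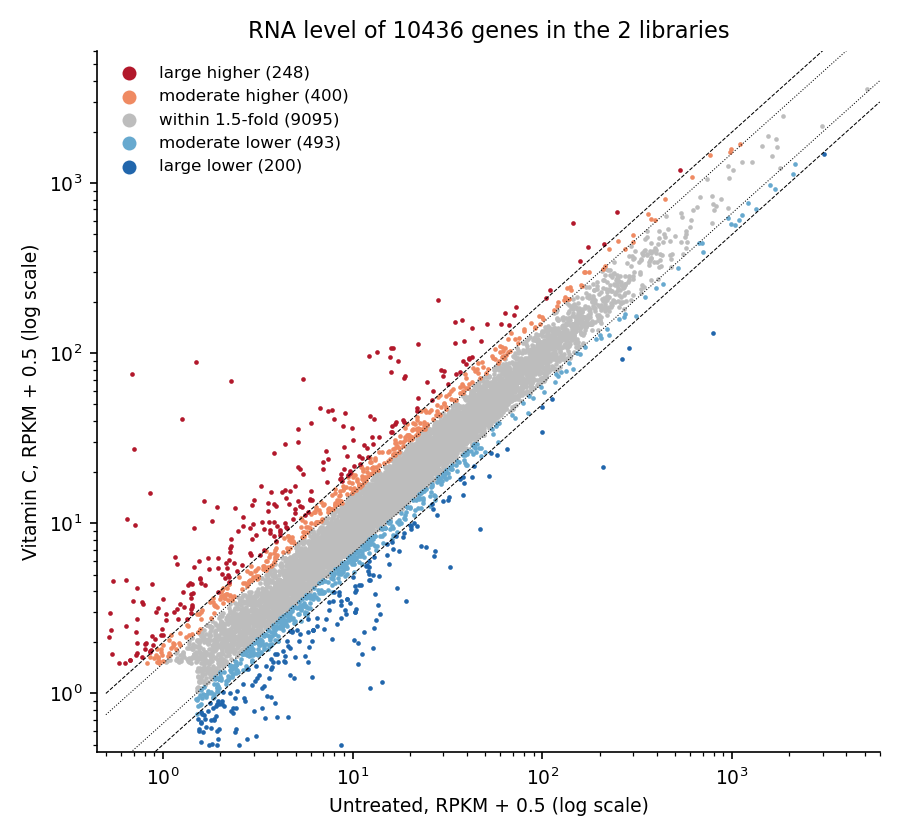
RNA level of the 10436 genes in the vitamin C library (vertical axis) against the untreated library (horizontal axis), both as RPKM + 0.5 on log scales, 1 library each. Colours give the 5 classes, and large changes (248 higher, 200 lower) lie farthest from the diagonal.

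The classes differed in expression level. Moderate higher genes had a median of 16.9 RPKM with vitamin C and 10.2 RPKM untreated, whereas moderate lower genes had 4.14 RPKM with vitamin C and 7.29 RPKM untreated. Of the moderate lower genes 41% and of the large lower genes 45% were under 5 RPKM in both libraries, against 28.2% of the large higher genes and 15.0% of the genes within 1.5-fold. The moderate higher genes took 5.75% of all reads with vitamin C and 3.46% untreated, the greatest shift in read share of the 4 changed classes. The moderate classes were also the ones least covered by the authors' deposited gene lists, which held 244 of the 248 large higher and 160 of the 200 large lower genes but 162 of the 400 moderate higher and 20 of the 493 moderate lower genes. Genes on none of the marker lists made up 229, 395, 485 and 189 of the large higher, moderate higher, moderate lower and large lower genes. Over all genes tested this held for 10354 of 10436. Of the 82 measured genes on a marker list 29.3% were at least 1.5-fold higher and 23.2% at least 1.5-fold lower. Among genes off the lists these shares were 6.03% and 6.51%, so marker genes changed more often.

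The limits cut a continuous range. Gbe1, the glycogen branching enzyme, stood just inside the 2-fold limit with 7.42 RPKM with vitamin C and 3.46 RPKM untreated, and Rab19 just outside it with 1.71 RPKM with vitamin C and 0.607 RPKM untreated. At the moderate lower limit, Naxe (28.7 RPKM with vitamin C and 43.3 RPKM untreated) was in and Ifngr1 (17.9 RPKM with vitamin C and 27.2 RPKM untreated) was out.

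Families of genes differed in how often their members passed these limits. Of all genes tested 6.21% were at least 1.5-fold higher and 6.64% at least 1.5-fold lower. Against that background, 38.5% of hypoxia targets, 34.6% of TNF superfamily genes and 30.2% of lectins and innate immunoreceptors were higher. At the other end, 33.3% of enzymes that make or degrade cyclic nucleotides, 23.8% of homeobox genes outside the HoxA cluster and 11.9% of chromatin remodellers were lower with 0 members higher. Families of general metabolism and growth held few changes: none of 64 translation factors, none of 10 pentose phosphate genes and 1 of 49 DNA replication genes passed 1.5-fold.

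**Figure D2:**
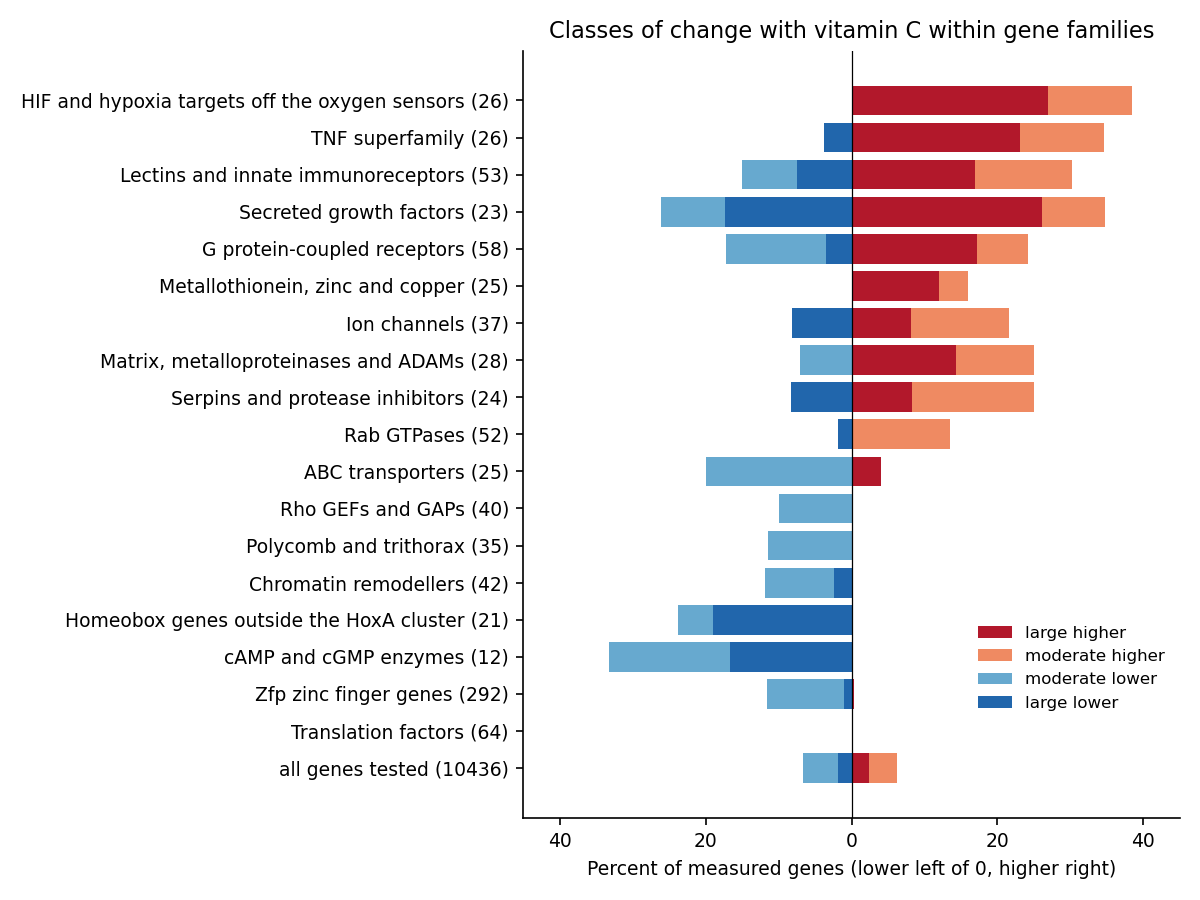
Percent of the measured genes in each family (number in brackets) that were higher with vitamin C, to the right of 0, or lower, to the left of 0, with large and moderate changes stacked. Hypoxia targets and TNF superfamily genes extend to the right, homeobox genes and cyclic nucleotide enzymes to the left, and all genes tested are shown in the last row.

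Hypoxia targets formed the family with the highest share of higher members. They are genes that the hypoxia-inducible factors switch on when prolyl hydroxylation fails. Of 26 measured, 7 were large higher, 3 were moderate higher and 0 were lower, and the family's median log2 change was 0.38 against −0.04 for all genes. Ero1l, the endoplasmic reticulum oxidase that makes disulphide bonds, had 584 RPKM with vitamin C and 145 RPKM untreated, 4.02-fold higher (interval 3.98 to 4.06). Bnip3, a mitophagy receptor, had 107 RPKM with vitamin C and 15.8 RPKM untreated. Its relative Bnip3l was a moderate case, with 35.5 RPKM with vitamin C and 22.1 RPKM untreated. Vegfa, the angiogenic growth factor, had 40.2 RPKM with vitamin C and 21.3 RPKM untreated, and Ak4, a mitochondrial adenylate kinase, had 15.4 RPKM with vitamin C and 9.58 RPKM untreated.

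Off this list, some abundant genes of glycolysis and a mitochondrial protein were higher as well, picked by their size of change. Aldoa, the muscle-type aldolase, had 1192 RPKM with vitamin C and 529 RPKM untreated. Tpi1, triose phosphate isomerase, had 659 RPKM with vitamin C and 359 RPKM untreated, and Ldha, the lactate dehydrogenase subunit, had 618 RPKM with vitamin C and 371.5 RPKM untreated. Tpi1 and Ldha were moderate changes and appeared in neither deposited list. Fam162a, a mitochondrial protein linked to hypoxia and cell death, had 185 RPKM with vitamin C and 71.9 RPKM untreated.

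The core of the hypoxia response element, ACGTG, was looked for on both strands of RefSeq promoters (GRCm38.p6, the same assembly as mm10), from 250 bases before to 50 after the start. It was found in 26.8% of the 183 large higher promoters and in 27.1% of all 8121 promoters, and these shares lay close together. The promoters of Bnip3 (chr7:138909457-138909756, minus strand) and Fam162a (chr16:36071512-36071811, minus strand) are shown as examples that hold it, with the match in capitals. In Bnip3 matches on both strands overlap as one CACGTG, and in Fam162a the match reads as CACGT because it lies on the other strand.
Bnip3: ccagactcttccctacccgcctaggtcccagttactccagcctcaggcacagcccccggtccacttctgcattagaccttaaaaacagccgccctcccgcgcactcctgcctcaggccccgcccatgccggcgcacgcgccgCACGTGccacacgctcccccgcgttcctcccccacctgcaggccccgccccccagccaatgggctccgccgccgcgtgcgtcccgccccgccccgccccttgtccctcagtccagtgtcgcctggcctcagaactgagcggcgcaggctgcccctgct
Fam162a: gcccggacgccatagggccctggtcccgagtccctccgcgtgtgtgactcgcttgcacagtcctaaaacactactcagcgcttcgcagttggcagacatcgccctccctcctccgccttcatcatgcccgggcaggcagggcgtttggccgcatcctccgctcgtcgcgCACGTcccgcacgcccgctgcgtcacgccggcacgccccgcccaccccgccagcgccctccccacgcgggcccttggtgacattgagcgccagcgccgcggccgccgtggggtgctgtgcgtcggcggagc

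Genes of adenosine and nucleotide signalling and metabolism were more often higher than lower, a group put together after its values were seen. Some of its members, such as Upp1 and Adk, act inside the cell. Cells release ATP and ADP as alarm signals, ectoenzymes trim these to adenosine, and both are sensed by surface receptors. Of the 26 genes measured in the whole group, 6 were large higher, 3 moderate higher and 2 large lower, with a median log2 change of 0.30. Nt5e, the ectoenzyme CD73 that makes adenosine from AMP, had 35.1 RPKM with vitamin C and 4.64 RPKM untreated, 7.57-fold higher (interval 7.13 to 8.04). Upp1, uridine phosphorylase, had 35.6 RPKM with vitamin C and 9.44 RPKM untreated. Further nucleotide hydrolases were moderate cases. Enpp4 had 17.1 RPKM with vitamin C and 9.01 RPKM untreated, and Entpd5 had 12.3 RPKM with vitamin C and 7.56 RPKM untreated.

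The receptors of this group split by subtype. Adora2b, a low-affinity adenosine receptor, had 9.72 RPKM with vitamin C and 2.84 RPKM untreated. Adora3, the adenosine receptor of mast cells, had 2.67 RPKM with vitamin C and 0.436 RPKM untreated. Adora2a, in contrast, had 3.02 RPKM with vitamin C and 3.35 RPKM untreated and stayed within 1.5-fold. The same held among ATP-gated channels: P2rx4 had 27.5 RPKM with vitamin C and 8.45 RPKM untreated, while P2rx3 had 1.13 RPKM with vitamin C and 4.45 RPKM untreated. P2rx1, more abundant than either, had 48.5 RPKM with vitamin C and 60.5 RPKM untreated and stayed within 1.5-fold. P2ry14, the receptor for UDP-glucose, had 3.15 RPKM with vitamin C and 0.908 RPKM untreated. Ada, the deaminase that removes adenosine, was lower, with 1.74 RPKM with vitamin C and 4.77 RPKM untreated.

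The AP-1 motif, TGANTCA, is the site bound by FOS and JUN proteins. It occurred on either strand in 10.9% of large higher promoters, 7.72% of moderate higher promoters and 4.58% of all promoters. Adora3 (chr3:105904171-105904470, plus strand) and P2ry14 (chr3:59153443-59153742, minus strand) are shown as receptor genes of the group above that hold a match, in capitals, starting 98 and 202 bases before the start. P2rx4, of the same group, holds none in its window.
Adora3: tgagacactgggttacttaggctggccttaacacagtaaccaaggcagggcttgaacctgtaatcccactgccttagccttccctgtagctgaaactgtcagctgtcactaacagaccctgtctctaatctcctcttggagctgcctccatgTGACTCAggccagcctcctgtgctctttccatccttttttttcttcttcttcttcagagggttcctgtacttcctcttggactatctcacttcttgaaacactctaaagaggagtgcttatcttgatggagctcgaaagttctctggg
P2ry14: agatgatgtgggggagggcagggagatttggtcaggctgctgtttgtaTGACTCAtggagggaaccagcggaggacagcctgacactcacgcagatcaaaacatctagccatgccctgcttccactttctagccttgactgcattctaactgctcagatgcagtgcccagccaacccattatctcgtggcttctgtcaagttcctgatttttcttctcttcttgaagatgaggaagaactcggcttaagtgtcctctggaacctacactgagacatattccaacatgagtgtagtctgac

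Ligands and receptors of co-signalling between antigen-presenting cells and T cells formed a further group, also put together after its values were seen. Of 20 measured, 7 were large higher, 2 moderate higher, 1 moderate lower and 1 large lower, with a median log2 change of 0.43. Tnfrsf9, the 4-1BB receptor, had 89.2 RPKM with vitamin C and 16.9 RPKM untreated, 5.29-fold higher (interval 5.10 to 5.49). Its ligand Tnfsf9 had 20.4 RPKM with vitamin C and 6.50 RPKM untreated. Cd69, an early activation marker of many leukocytes, had 153 RPKM with vitamin C and 34.1 RPKM untreated. Both ligands of the PD-1 receptor were higher: Cd274 (PD-L1) had 24.3 RPKM with vitamin C and 10.3 RPKM untreated, and Pdcd1lg2 (PD-L2) had 12.5 RPKM with vitamin C and 3.32 RPKM untreated. These genes neighbour each other on chromosome 19. The inhibitory receptor Btla went the other way, with 4.55 RPKM with vitamin C and 11.7 RPKM untreated. Tigit, another inhibitory receptor, was counted on few reads, 90 with vitamin C and 6 untreated, and its ratio of 11.8 had an interval from 5.19 to 32.8.

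The TNF superfamily of cytokines and death or survival receptors overlapped with that group. Of 26 members measured, 6 were large higher, 3 moderate higher and 1 large lower. Tnf had 22.6 RPKM with vitamin C and 6.47 RPKM untreated, and Tnfrsf26, a receptor of the family found in mice, had 67.7 RPKM with vitamin C and 24.3 RPKM untreated. Tnfrsf1a, the main receptor for TNF, was lower, with 26.7 RPKM with vitamin C and 64.6 RPKM untreated. In this family 9 of the 26 genes lie on chromosome 17 or the far end of chromosome 7, 2 stretches described further on in which most genes were higher. Without those 9, the family's median log2 change was 0.19 in place of 0.32.

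**Figure D3:**
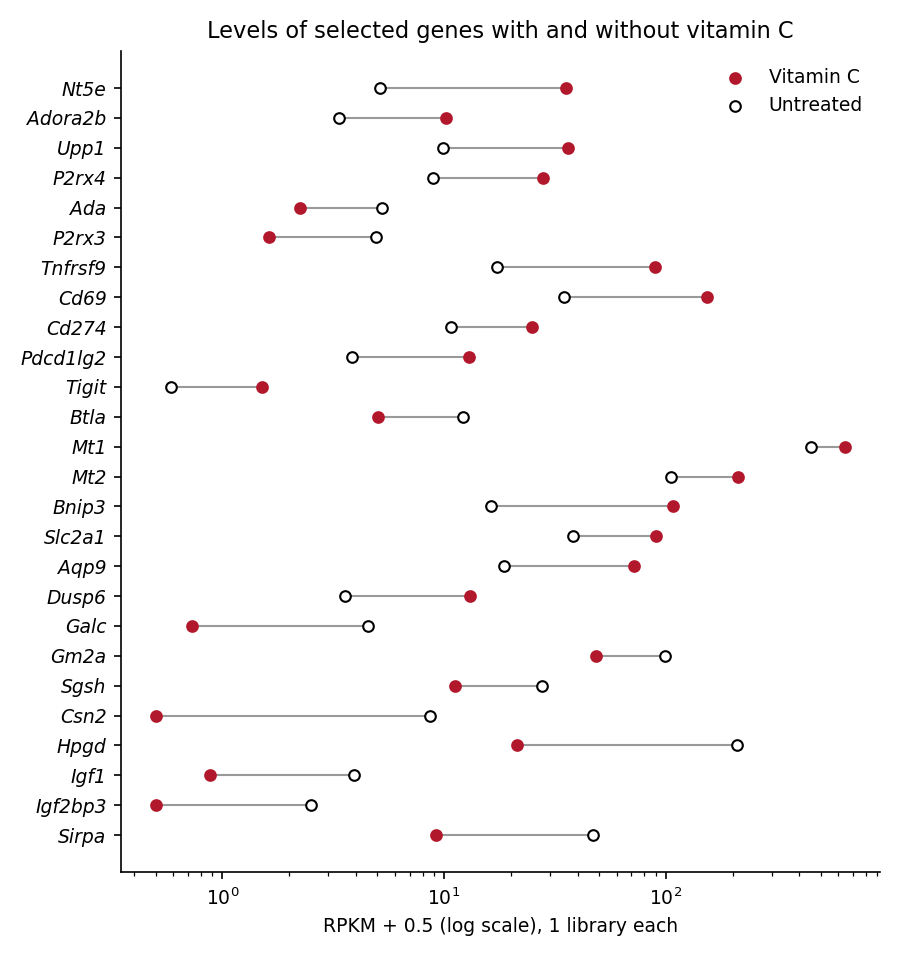
Levels of 26 selected genes in the vitamin C library (filled points) and the untreated library (open points), as RPKM + 0.5 on a log scale, 1 library each. Nt5e, Tnfrsf9 and Cd69 lie to the right with vitamin C, and Galc, Sirpa and Igf1 lie to the left.

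Secreted growth factors were split between the extremes. Of 23 measured, 6 were large higher, 2 moderate higher, 2 moderate lower and 4 large lower, so 14 of 23 passed 1.5-fold while the median log2 change was 0.22. Lif, a cytokine of the IL-6 family, had 47.4 RPKM with vitamin C and 6.23 RPKM untreated, 7.61-fold higher (interval 7.27 to 7.98). Gdf15, a stress-induced TGF-beta relative, had 5.80 RPKM with vitamin C and 0.660 RPKM untreated. Csf1, the macrophage growth factor, had 65.7 RPKM with vitamin C and 31.4 RPKM untreated. Growth factors of vessels and epithelia were among them too. Vegfc, a lymphatic growth factor, had 12 RPKM with vitamin C and 4.88 RPKM untreated, and Hgf, hepatocyte growth factor, had 139 RPKM with vitamin C and 91.2 RPKM untreated. Hgfac, a protease that activates HGF, had 11.8 RPKM with vitamin C and 1.91 RPKM untreated.

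Among the lower members, Igf1 had 0.382 RPKM with vitamin C and 3.41 RPKM untreated, 8.91-fold lower (interval 7.96 to 9.98). Nrg2, a ligand of ERBB receptors, had 11 reads with vitamin C and 509 reads untreated. The name pattern for this family also caught Igf2bp3, an RNA-binding protein of fetal and leukaemic cells rather than a growth factor. Igf2bp3 had 0 reads with vitamin C and 634 reads untreated, at least 270.1-fold lower when the vitamin C count is set to the floor of 3 reads per library. Csn2, Pdlim1 and Tmem98 were the other large lower genes with 0 reads with vitamin C, beside 666, 156 and 148 reads untreated.

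Csn2 encodes beta-casein, a milk protein whose promoter is a textbook target of STAT5. Its promoter (chr5:87699376-87699675, minus strand) is shown because its loss was the largest by log2, −4.12, and because it holds TTCNNNGAA, the spacing bound by STAT proteins, in capitals. That motif, which reads the same on both strands, occurred in 7.65% of large higher, 5.41% of large lower and 6.93% of all promoters.
Csn2: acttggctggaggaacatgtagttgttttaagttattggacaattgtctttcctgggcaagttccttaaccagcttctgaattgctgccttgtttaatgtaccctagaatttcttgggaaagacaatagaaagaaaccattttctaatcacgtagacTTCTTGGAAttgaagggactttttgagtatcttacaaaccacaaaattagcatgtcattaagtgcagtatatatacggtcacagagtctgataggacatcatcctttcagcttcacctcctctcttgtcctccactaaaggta

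Many lectins and innate immunoreceptors sense microbes, dead cells or antibodies, and 42 of 53 measured genes of this list had a log2 change above 0. The name pattern also caught genes of other roles. Among the large higher ones these were Clec11a, a secreted growth factor also counted in that family, and the Ly6 gene Ly6g5b. Of these 53 genes 9 were large higher, 7 moderate higher, 4 moderate lower and 4 large lower. Clec4n (Dectin-2) had 2.22 RPKM with vitamin C and 0.533 RPKM untreated, Clec5a had 23.6 RPKM with vitamin C and 11.8 RPKM untreated, and Clec4e (Mincle) had 95.3 RPKM with vitamin C and 61.4 RPKM untreated. Trem1, an amplifier of inflammatory signals, had 24.4 RPKM with vitamin C and 8.79 RPKM untreated. Nlrp3, the inflammasome sensor, had 31.5 RPKM with vitamin C and 13.3 RPKM untreated, and Tlr2, a receptor for bacterial lipoproteins, had 11 RPKM with vitamin C and 4.48 RPKM untreated. Sirpa, the inhibitory receptor for CD47, ran against them with 8.74 RPKM with vitamin C and 46.6 RPKM untreated, 5.34-fold lower (interval 5.15 to 5.52). Nlrp1a, another inflammasome sensor, had 0.114 RPKM with vitamin C and 1.46 RPKM untreated.

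Of 58 G protein-coupled receptors, 10 were large higher, 4 moderate higher, 8 moderate lower and 2 large lower. C3ar1, the receptor for the complement fragment C3a, had 19.0 RPKM with vitamin C and 4.98 RPKM untreated. Ccr2, which guides monocytes, had 85.4 RPKM with vitamin C and 38.9 RPKM untreated. Gpr34, a lysophosphatidylserine receptor, had 42.0 RPKM with vitamin C and 11.9 RPKM untreated. Sphingolipid and lysophosphatidic acid receptors stood among the lower ones. S1pr3 had 5.32 RPKM with vitamin C and 8.61 RPKM untreated, and Lpar1 had 1.43 RPKM with vitamin C and 3.22 RPKM untreated.

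Genes linked to the restraint of MAP kinase or G protein signalling were more often higher than lower. Both sets below were assembled after their values were seen. One set held 20 dual-specificity phosphatases, Sprouty and Spred proteins, many but not all of which restrain MAP kinase signalling. Of these 20, 3 were large higher, 4 moderate higher and 0 lower, with a median log2 change of 0.42. Dusp6, which dephosphorylates ERK in the cytoplasm, had 12.6 RPKM with vitamin C and 3.08 RPKM untreated. Dusp4 had 4.29 RPKM with vitamin C and 1.07 RPKM untreated, and Spry2 had 18.8 RPKM with vitamin C and 9.84 RPKM untreated. Etv5, a transcription factor whose gene is a known ERK target, had 16.1 RPKM with vitamin C and 2.78 RPKM untreated. Of 10 regulators of G protein signalling, which speed up the inactivation of G proteins, 3 were large higher and 1 large lower. Rgs2 had 43.8 RPKM with vitamin C and 8.59 RPKM untreated, and Rgs5 had 0.361 RPKM with vitamin C and 1.48 RPKM untreated.

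Cyclic nucleotide enzymes, fixed as a list, had no higher member. Of 12 measured 2 were moderate lower and 2 large lower, with a median log2 change of −0.37. Adcy9, an adenylyl cyclase, had 1.39 RPKM with vitamin C and 4.06 RPKM untreated, and Pde8a, a phosphodiesterase that degrades cAMP, had 1.85 RPKM with vitamin C and 5.65 RPKM untreated. Enzymes that make and that degrade the messenger were thus both among the lower genes. Pde4b had 2.11 RPKM with vitamin C and 3.73 RPKM untreated.

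Prostaglandins and leukotrienes are lipid mediators made from arachidonic acid. Of 19 of their enzymes and receptors, a group assembled after its values were seen, 3 were large higher, 2 moderate higher and 2 large lower. Ptgs2, the inducible cyclooxygenase, had 8.85 RPKM with vitamin C and 0.962 RPKM untreated, 9.19-fold higher (interval 8.15 to 10.4). Alox5, which starts leukotriene synthesis, had 5.23 RPKM with vitamin C and 0.683 RPKM untreated. The lower members were both enzymes that inactivate these mediators. Hpgd, prostaglandin dehydrogenase, had 20.8 RPKM with vitamin C and 207.8 RPKM untreated, and Ptgr1, prostaglandin reductase, had 0.738 RPKM with vitamin C and 4.41 RPKM untreated. Ptgr2, another reductase of prostaglandins, had 9.17 RPKM with vitamin C and 9.96 RPKM untreated. The constitutive cyclooxygenase Ptgs1 had 45.1 RPKM with vitamin C and 45.2 RPKM untreated, and 12 of the 19 genes stayed within 1.5-fold.

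Proteins of adhesion and matrix changed in both directions. Spp1 (osteopontin), a secreted matrix protein of macrophages, had 94.0 RPKM with vitamin C and 15.2 RPKM untreated, 6.19-fold higher (interval 5.89 to 6.50). Lgals3 (galectin-3) had 26 RPKM with vitamin C and 6.77 RPKM untreated, and Adam8, a surface metalloproteinase, had 148 RPKM with vitamin C and 50.7 RPKM untreated. Emilin2, an extracellular glycoprotein, was among the most abundant large higher genes, with 421 RPKM with vitamin C and 174 RPKM untreated. Of 26 integrins and leukocyte adhesion genes, 3 were large higher, 1 moderate higher, 3 moderate lower and 2 large lower. Itgae, the integrin chain that binds E-cadherin, had 2.85 RPKM with vitamin C and 0.288 RPKM untreated. Cd44, the hyaluronan receptor, had 2.44 RPKM with vitamin C and 13.5 RPKM untreated, 5.53-fold lower (interval 5.22 to 5.84), and Itgb5 had 6.42 RPKM with vitamin C and 26.6 RPKM untreated.

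Protease inhibitors were more often higher than lower, with 2 large higher, 4 moderate higher and 2 large lower of 24. Serpinb1a, which blocks neutrophil elastase and cathepsin G, had 409 RPKM with vitamin C and 224 RPKM untreated, and Slpi, a secreted elastase inhibitor, had 151 RPKM with vitamin C and 86.8 RPKM untreated.

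Metal and water transport held few but large changes. Of 25 metallothionein, zinc and copper genes 3 were large higher, 1 moderate higher and 0 lower, with a median log2 change of 0.24. Atp7b, the copper-exporting ATPase mutated in Wilson disease, had 1002 reads with vitamin C and 10 reads untreated, 1.66 RPKM with vitamin C and 0.0211 RPKM untreated. Slc39a4, a zinc importer, had 39.1 RPKM with vitamin C and 16.5 RPKM untreated. The metallothioneins, which bind zinc and copper, were abundant: Mt2 had 212 RPKM with vitamin C and 104.5 RPKM untreated, and Mt1 had 644 RPKM with vitamin C and 449 RPKM untreated, within 1.5-fold. Aqp9, a channel for water, glycerol and hydrogen peroxide, had 71.5 RPKM with vitamin C and 18.2 RPKM untreated, and Aqp8, another peroxide-permeable channel, had 12.4 RPKM with vitamin C and 2.44 RPKM untreated. The aquaporins were looked at after their values were seen.

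Thiol antioxidant genes did not move as a block. Of 57 measured 1 was large higher, 4 moderate higher, 4 moderate lower and 2 large lower. Srxn1, which repairs peroxiredoxins, had 25.8 RPKM with vitamin C and 13.2 RPKM untreated, and Gclc, the catalytic subunit for glutathione synthesis, had 40.8 RPKM with vitamin C and 26 RPKM untreated. Gpx1, a glutathione peroxidase, was lower, with 442 RPKM with vitamin C and 692 RPKM untreated. Mgst1, a membrane glutathione transferase, had 0.294 RPKM with vitamin C and 2.50 RPKM untreated, and Gstk1, a mitochondrial one, had 1.53 RPKM with vitamin C and 5.61 RPKM untreated.

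Lysosomal enzymes that were higher were mostly moderate changes, in a group assembled after the values were seen. Of 52 measured 1 was large higher, 9 moderate higher, 1 moderate lower and 3 large lower. Ctsd (cathepsin D) had 1692 RPKM with vitamin C and 1100 RPKM untreated, and Glb1 (beta-galactosidase) had 326 RPKM with vitamin C and 212.5 RPKM untreated. The lower ones were fewer but changed more. Galc, which breaks down galactosylceramide, had 0.231 RPKM with vitamin C and 4.04 RPKM untreated, 17.5-fold lower (interval 14 to 22.1). Sgsh, a heparan sulphate sulphatase, had 10.7 RPKM with vitamin C and 27.3 RPKM untreated, and Gm2a, the GM2 activator protein, had 48.1 RPKM with vitamin C and 98.8 RPKM untreated. Of the 10 higher lysosomal genes, 5 lay outside chromosome 17 and the far end of chromosome 7.

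Of 52 Rab GTPases, which label transport vesicles, 7 were moderate higher and 1 large lower. Rab27b, used for granule release, had 12.2 RPKM with vitamin C and 6.49 RPKM untreated, and Rab6a, of the Golgi, had 86.9 RPKM with vitamin C and 45.5 RPKM untreated. Rab7b was the lower one, with 0.325 RPKM with vitamin C and 1.84 RPKM untreated.

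Other abundant genes filled the moderate higher class. Ftl1, a ferritin light chain, had 1583 RPKM with vitamin C and 989 RPKM untreated, a value that near-identical copies of the gene make uncertain. Ifitm1, an interferon-induced membrane protein, had 1093 RPKM with vitamin C and 613 RPKM untreated. Atf4, the transcription factor of the integrated stress response, had 312 RPKM with vitamin C and 207 RPKM untreated. Map2k1, the MAP kinase kinase MEK1, had 45 RPKM with vitamin C and 22.4 RPKM untreated, and Pmaip1 (NOXA), a cell death protein, had 37.7 RPKM with vitamin C and 18.8 RPKM untreated.

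Of 42 chromatin remodellers 4 were moderate lower, 1 large lower and 0 higher, and 33 of the 42 had a log2 change of 0 or less, with a median of −0.26. The 4 moderate lower genes include Arid5a, which the name pattern caught although it is not a subunit of a remodeller. Chd7, a CHD helicase needed in development, had 1.47 RPKM with vitamin C and 10.2 RPKM untreated, 6.94-fold lower (interval 6.60 to 7.29). Its relatives changed less: Chd8 had 13.6 RPKM with vitamin C and 23.1 RPKM untreated, and Chd6 had 3.38 RPKM with vitamin C and 6.27 RPKM untreated. Of 35 Polycomb and trithorax genes 4 were moderate lower and 0 higher. Chromobox genes were 3 of those 4, with Cbx6 at 16.5 RPKM with vitamin C and 28.7 RPKM untreated, Cbx2 at 4.92 RPKM with vitamin C and 8.44 RPKM untreated, and Cbx8 at 3.29 RPKM with vitamin C and 5.20 RPKM untreated. The other was Kmt2c, a histone methyltransferase, with 5.12 RPKM with vitamin C and 8.70 RPKM untreated.

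Of 21 homeobox genes outside the HoxA cluster, 1 was moderate lower, 4 were large lower and 0 were higher. The large lower ones include Tgif2-ps2, a copy of Tgif2 with 1 read with vitamin C and 56 reads untreated, whose reads can be shared between copies. Meis1, the partner of HOXA9 in leukaemia, had 10.1 RPKM with vitamin C and 18.3 RPKM untreated. Tgif2, a TGF-beta repressor, had 0.118 RPKM with vitamin C and 1.94 RPKM untreated. Emx2, a homeobox gene that the list's pattern missed, had 0.321 RPKM with vitamin C and 2.84 RPKM untreated.

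Zinc finger genes named Zfp, many of them DNA-binding repressors, were counted after their values were seen. Of 292 measured 31 were moderate lower, 3 large lower and 1 large higher, the median log2 change was −0.24, and 56 had a log2 change above 0. Zfp827 had 0.0916 RPKM with vitamin C and 1.90 RPKM untreated, and Zfp866 had 2.82 RPKM with vitamin C and 8.21 RPKM untreated. The 1 higher gene, Zfp36, is not of that kind but encodes tristetraprolin, which binds and destabilises cytokine mRNA, with 106 RPKM with vitamin C and 15.5 RPKM untreated. Predicted genes named Gm, also counted afterwards, had 41 of 279 lower and 9 higher. Pseudogenes were also more frequent among moderate lower genes, 5.82% of those with a position against 1.52% of genes within 1.5-fold. Reads of pseudogenes and of the zinc finger genes that have near-identical copies can be split between copies, which makes single values uncertain.

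Histone genes of the Hist clusters split as well. Of 54 measured, again counted after their values were seen, 8 were large higher, 6 moderate higher, 5 moderate lower and 3 large lower. Hist1h1c, a linker histone, had 72.8 RPKM with vitamin C and 18.4 RPKM untreated, and Hist1h2bg had 36.9 RPKM with vitamin C and 8.44 RPKM untreated. Hist1h3c had 9.19 RPKM with vitamin C and 21.4 RPKM untreated. Most mRNAs of these genes lack a polyA tail, so a polyA library holds only the part that carries one, and their copies are nearly alike in sequence.

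Large lower genes outside any family above came from several processes. Cpe, a carboxypeptidase that processes prohormones, had 1.20 RPKM with vitamin C and 10.7 RPKM untreated. Ank, a membrane protein linked to pyrophosphate export, had 2.98 RPKM with vitamin C and 18.6 RPKM untreated, and Lipg, endothelial lipase, had 1.91 RPKM with vitamin C and 12.4 RPKM untreated. Tgfbr3, the TGF-beta co-receptor, and Sgpp1, a phosphatase of sphingosine phosphate, were also at least 2-fold lower. Tgfbr3 had 3.66 RPKM with vitamin C and 16.5 RPKM untreated, and Sgpp1 had 6.71 RPKM with vitamin C and 23.9 RPKM untreated. Kcng2, a modifier subunit of potassium channels, had 1.35 RPKM with vitamin C and 12.3 RPKM untreated, and Ryr1, a calcium release channel, had 1.38 RPKM with vitamin C and 5.37 RPKM untreated. Ion channel genes as a family were more often higher than lower. Of 37 measured, 3 were large higher, 5 moderate higher, 0 moderate lower and 3 large lower.

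Position on the chromosomes tracked the moderate higher class. Chromosome 17 and the part of chromosome 7 beyond 84 Mb were singled out after the values were seen. On chromosome 17 the 551 genes had a median log2 change of 0.28, with quartiles at 0.06 and 0.47, and 80.4% of them were above 0. On chromosome 7 beyond 84 Mb the 335 genes had a median of 0.32, and 80.3% were above 0. The 455 genes of chromosome 7 before 84 Mb had a median of −0.13. The 9185 genes outside both stretches, of which 41.6% were above 0, had a median of −0.06, and no other chromosome had a median outside −0.10 to 0.09.

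Together the stretches held 8.80% of genes with a position but 30.9% of the moderate higher genes, 119 of 385. They held 14.2% of the large higher, 3.23% of the moderate lower and 7.89% of the large lower genes. Along chromosome 17, 7 of 8 bins of 10 Mb with at least 20 genes had a median of 0.2 or more, and along chromosome 7 this held for 6 of 13 bins, all on the far part. On the other chromosomes it held for 1 of 164 bins. Numbers of ChIP-seq peaks on these stretches were set beside this. The vitamin C to untreated ratio of H3K27ac peak numbers was 0.960 on chromosome 17 and 0.977 on the far part of chromosome 7, with 0.973 over all chromosomes. For PU.1 the ratio was 0.467 and 0.432 on the same stretches, with 0.382 over all chromosomes and a range from 0.307 to 0.416 over the others. For H3K4me1 it was 0.788 and 0.896, with 0.791 over all chromosomes and a range from 0.449 to 0.847 over the others. The ratios of H3K4me3 (1.08 and 1.03) and Runx1 (1.56 and 1.63) lay within the ranges of the others, 0.978 to 1.11 and 1.39 to 2.74. A difference in DNA copy number between the cultures was not tested, since no DNA copy number was analysed here.

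**Figure D4:**
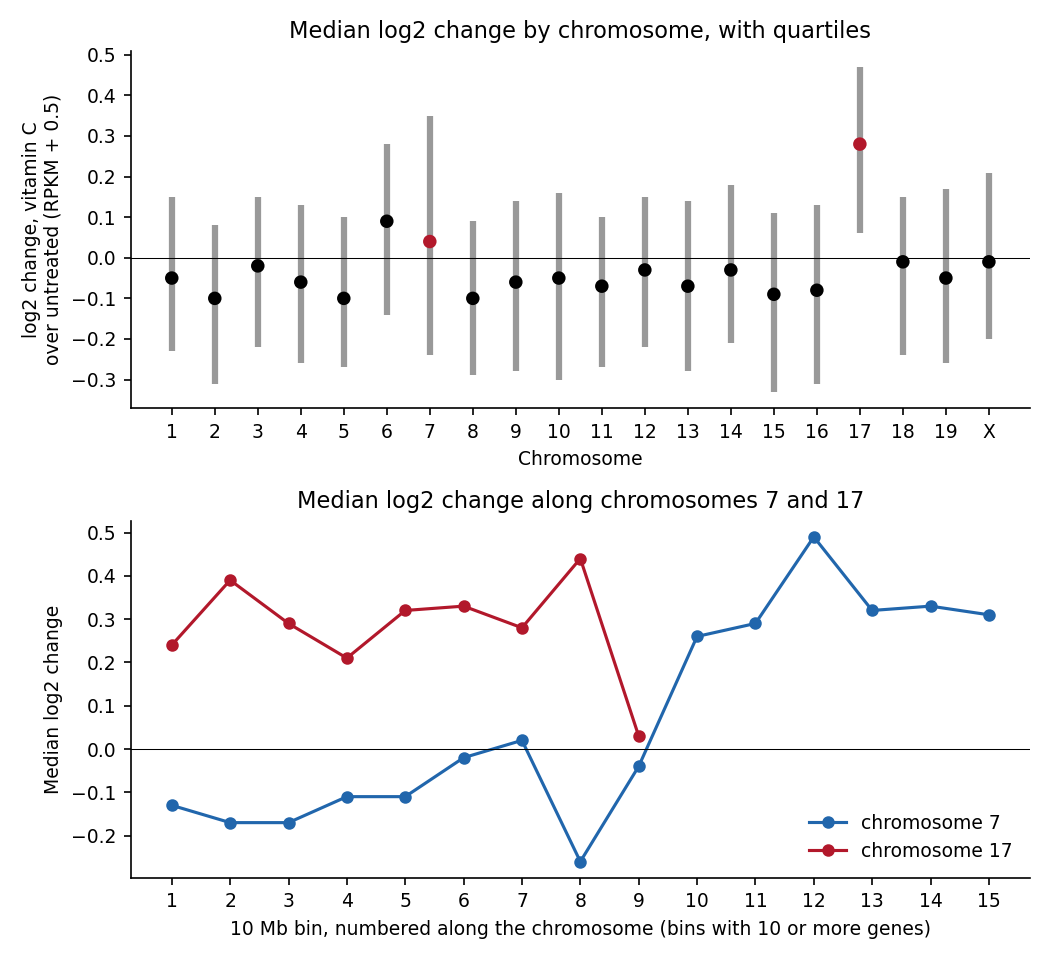
Median log2 change of RNA, vitamin C over untreated, with quartiles for each chromosome in the upper panel, and medians of 10 Mb bins along chromosomes 7 and 17 in the lower panel, for bins with 10 or more genes. Chromosome 17 has a median of 0.28 and the far bins of chromosome 7 reach 0.49.

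Genes named above that lie on these stretches include Bnip3, Aldoa, Adam8, Rab6a, Tnfrsf26, Ifitm1, Aqp8 and Ctsd on chromosome 7 and Vegfa, Tnf, Tnfsf9, Trem1, Enpp4 and Emilin2 on chromosome 17. Without both stretches, 215 genes were large higher, 281 moderate higher, 478 moderate lower and 185 large lower of 9550 tested. Outside them the hypoxia family had a median log2 change of 0.33, and lectins and innate immunoreceptors had 0.33. The adenosine group had 0.25 and the co-signalling group 0.37, while growth factors had 0.08.

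Among 10050 pairs of adjacent measured genes, both were higher in 91, both lower in 79, and the partners went opposite ways in 61. Runs of 3 or more numbered 29, and 12 of the 19 higher runs and 0 of the 10 lower runs lay on chromosome 17 or chromosome 7 beyond 84 Mb. On chromosome 11 the chemokine genes Ccl6, Ccl3 and Ccl4 formed one, with Ccl3 at 673 RPKM with vitamin C and 246 RPKM untreated. Engase, Cbx2 and Cbx8 formed a lower run on the same chromosome, so that 2 of the chromobox genes above are neighbours, and Zfp58, Zfp87 and Zfp748 formed a lower run on chromosome 13.

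The classes also differed in promoter sequence and in the marks around their starts, none of which was used to choose them. The authors' peak lists were used for genes with a RefSeq promoter, 183 large higher, 311 moderate higher, 7137 within 1.5-fold, 342 moderate lower and 148 large lower. CpG-rich promoters, with at least 55% G and C and an observed to expected CpG ratio of at least 0.6, made up 42.6% of large higher promoters and 65.5% of those within 1.5-fold. The TATA box TATAAA, read on the coding strand in the 50 bases before the start, was found in 6.56% of large higher and 1.21% of all promoters. The ETS motif GGAAGTG, on either strand, went the other way, with 8.20% of large higher, 5.41% of large lower and 16.1% of all promoters. The shares of CpG-rich promoters were lower in each changed class than among genes within 1.5-fold.

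H3K27ac, an acetylation found at active regulatory DNA, had a peak within 1 kb of the start in both libraries for 68.9% of large higher and 59.5% of large lower genes, against 92.3% of genes within 1.5-fold. The full classes also differed in level. Under 5 RPKM in both libraries were 28.2% of large higher, 45% of large lower and 15.0% of genes within 1.5-fold. Neither these shares nor those of CpG-rich promoters were matched for level, and the part of level in them was not tested. A peak in the untreated library alone was listed for 7.43% of large lower genes and 1.02% of genes within 1.5-fold. Those 11 large lower genes included St6gal1, a sialyltransferase with 1.04 RPKM with vitamin C and 3.28 RPKM untreated, and also Itgb5, Mgst1 and Igf2bp3 described above. A peak with vitamin C alone was listed for 3 large higher genes (1.64%), Emp1, Itgax and Cpne2, against 0.617% of genes within 1.5-fold. A peak in the untreated library alone was listed for as many large higher genes, 3, among them Nt5e. For most changed genes the peak status was therefore the same in both libraries although the RNA differed.

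For PU.1, a master factor of myeloid cells, peaks in both libraries were listed at 24.6% of large higher, 23.5% of moderate higher, 15.2% of moderate lower and 10.1% of large lower genes, against 19.3% of genes within 1.5-fold. The PU.1 list held 23522 peaks with vitamin C and 61611 untreated. No PU.1 peak in either library was listed at 54.6% of large higher and 55% of moderate higher genes, the same level as the 54.6% of genes within 1.5-fold. That share was 64% of moderate lower and 72.3% of large lower genes. Peaks of Runx1, a further blood cell factor, were listed in both libraries at 15.3% of large higher and 26.7% of moderate higher genes. Such Runx1 peaks were listed at 17% of moderate lower and 6.76% of large lower genes, against 27.8% of genes within 1.5-fold. Regions of the authors' methylation lists were counted in each gene's span plus 5 kb on either side. WGBS deMRs lay at 34.2% of large lower and 23.6% of large higher genes, against 19.8% of genes within 1.5-fold. WGBS iMRs, the other list of that assay, lay at 14.7% of large lower genes and 7.30% of both large higher genes and genes within 1.5-fold. hMeDIP iHRs lay at 31.1% of large lower and 15.5% of large higher genes, against 20.9% of genes within 1.5-fold. The lists do not state the direction of a region or the libraries compared, and the median span was 29.6 kb for large lower and 15.0 kb for large higher genes, so a longer span offered more room for a region.

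**Figure D5:**
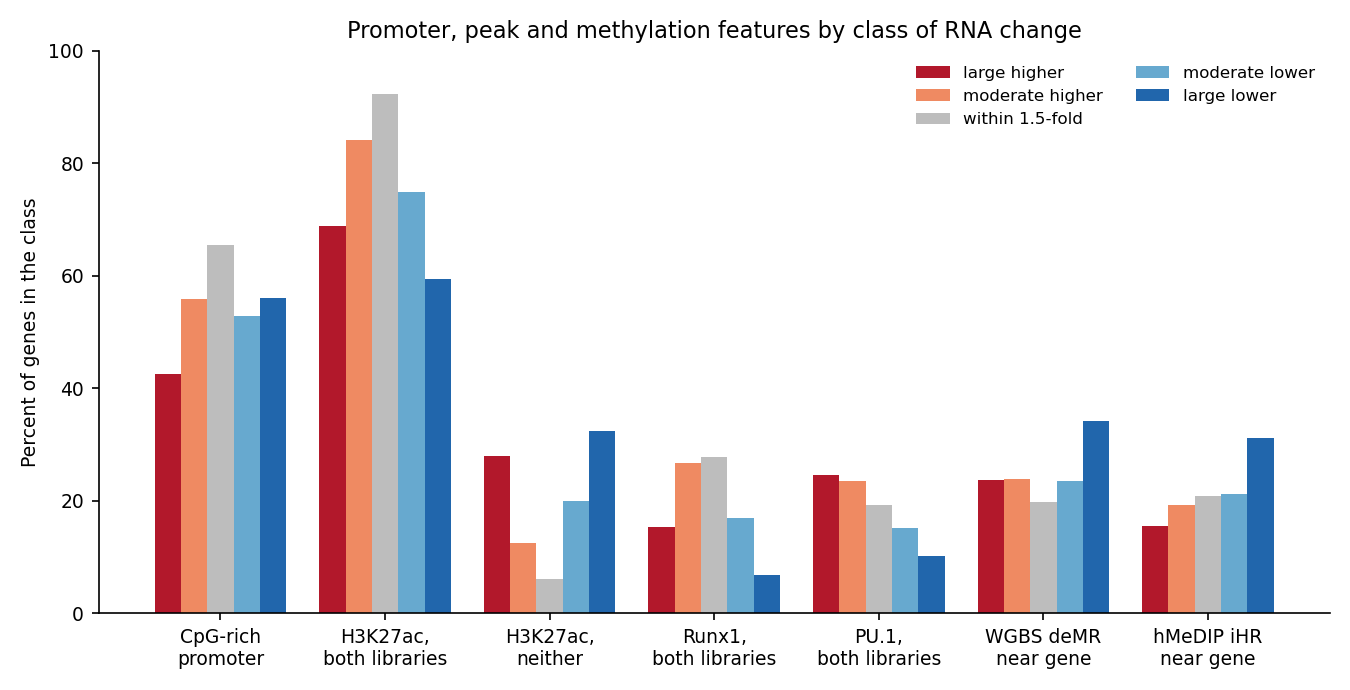
Percent of genes in each of the 5 classes of RNA change with a CpG-rich promoter, with H3K27ac, Runx1 or PU.1 peaks within 1 kb of the start, and with a WGBS deMR or hMeDIP iHR in the span plus 5 kb. Genes within 1.5-fold have the most H3K27ac in both libraries (92.3%), and large lower genes have the most WGBS deMRs (34.2%).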

How the data were processed

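PolyA RNA was sequenced with a strand-specific protocol, 1 library per group, per the labels' protocols. The authors deposited a whole-number read count and an RPKM value per Ensembl gene. The submitters' processing notes name SAMtools 0.1.2 and 0.1.16, Picard, MACS2 and the build mm10, without roles. How reads were counted, and against which annotation, is not given in the sources used here. Each histone peak has a deposited p-value (or q-value), and each PU.1 or Runx1 peak a deposited score of unstated meaning. Here the presence of a peak was used.

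The log2 change was computed from RPKM plus 0.5 for genes of 1 RPKM or more in either library. A ratio has an exact 95% binomial (Clopper-Pearson) interval from its reads, which were scaled by the 1.28 times more reads per RPKM in the vitamin C library. Interval and floor (3 reads) cover counting error only. Of the 10436 genes 104 had no matching symbol and 10071 had a position. RefSeq (GRCm38.p6) gave positions and 8121 promoters. A region counted as present at an overlap of 1 bp with a gene's span plus 5 kb.

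Named genes were the 20 of greatest RPKM difference per class, the 40 of greatest log2 change in each direction at 5 RPKM or more, and up to 4 per list, 300 genes in all, of which some are not reported here. Further named genes, 10 groups and both chromosome stretches were chosen after their values were seen. Members and lists were chosen with earlier results of these data known. Families were sets of symbol patterns (55 lists beside 13 marker lists). The code was tested on simulated data. Tools were Python 3.11.15, numpy 2.4.6, pandas 2.3.3, scipy 1.17.1, matplotlib 3.10.9, and R 4.3.3 with edgeR 4.0.16 for TMM factors.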

Additional observations from a re-analysis of the deposited data

How the results depend on the processing

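Counts of large higher genes ran from 178 to 299 over the settings tried: pseudocounts of 0.1 and 1 RPKM, no filter or a filter of 5 RPKM, centring on the median, TMM factors, median-ratio size factors, whole intervals past the limit, and leaving out chromosome 17 and chromosome 7 beyond 84 Mb, the last chosen after seeing the data. All 4 class counts stayed within 1.5 times of their reported values under these settings, with 2 exceptions. Under the filter of 5 RPKM moderate lower genes numbered 291 in place of 493 and large lower genes 110 in place of 200, since fewer genes of low level were tested. Higher genes made up 48.3% of genes past 1.5-fold, 56.2% under TMM or size factors and 42.8% without both chromosome stretches. Medians of the 55 families moved by less than 0.1 under both pseudocounts. They also did so under centring, TMM and size factors, but these settings rescale all genes alike. TMM factors took the median of all genes from −0.04 to 0.01, so a move of 0.1 could not arise there. Without a filter 14 of the 55 medians moved, with a filter of 5 RPKM 5 moved, and without both stretches 4 moved. Among those 4, TNF superfamily genes had 0.19 and growth factors 0.08. The cause was not tested. With a window of 5 kb, PU.1 peaks in both libraries were listed at 50.8% of large higher, 44.4% of moderate higher, 30.7% of moderate lower and 23.0% of large lower genes. The share was 32.3% of genes within 1.5-fold, close to that of moderate lower genes. No paired analysis was possible because each group held 1 library. Depth limits genes with few reads, such as Tigit and Atp7b, where the smaller count was 10 or less.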
